A study of Homo sapiens with 18 samples.

Results

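10 secreted or cell-surface products of mucosal epithelium were followed in Caco-2, an established line from a human colon tumour that serves as a model of gut epithelium. They were the trefoil peptides TFF1, TFF2 and TFF3, the lectin REG4, the protease inhibitors SLPI, SPINK1 and SPINK4, the folding enzyme AGR2, the membrane mucin MUC13 and the lipocalin LCN2. The 10 genes were chosen by function and from log2 signals of these same arrays, so their levels and differences are described here and the calls on them support nothing further. They are 10 of 19775 genes named by probe sets with a single symbol. On the array 14 of 54675 probe sets (groups of short probes that read 1 transcript) carry exactly 1 of these symbols, and 12 of them, from 8 genes, passed a filter on low signal. SPINK4 and LCN2 did not pass it.

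Cells grew in DMEM, the standard culture medium (control), or in DMEM without riboflavin (vitamin B2, from which cells make FMN and FAD), and were collected after 24, 48 and 72 h. Both media held foetal calf serum and antibiotics, with dialysed serum used for some cultures, and the labels do not say for which arrays. Each of the 6 groups had 3 arrays, 18 in all, and the array numbers in the titles form 3 sets of 6 with 1 array of every group. Nothing in the labels says that replicates were separate cultures, so the fit measures only the spread between these samples, which may be technical.

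Values are MAS5 signals on a linear scale, scaled per array. The number of arrays limits their precision. Array medians ran from 18.4 to 31.3, and set 2 stood apart with its 6 medians at 25.7 or above and its highest signals at 27380.2 or above, against at most 8574.5 in the other sets. Of 14 intestinal epithelial markers 13 passed the filter, among them VIL1 (median signal 1103.75), EPCAM (5189) and CDH17 (2115), while the intestinal lectin LGALS4 was low (median 8.65). Markers of other cells were not all low. Of 6 fibroblast markers 4 passed the filter, with signals over the 18 arrays in COL1A1 (113.3 to 459.9), COL3A1 (73.8 to 255.1), LUM (27.2 to 79) and DCN (8.8 to 38.6), while COL1A2 (1.2 to 59.1) and POSTN did not. Of 5 leukocyte markers on the array 3 passed, LYZ (83.7 to 290.5), CD14 (49.6 to 136.9) and CD3E (2 to 55), while PTPRC, the pan-leukocyte antigen (1 to 16.6), and HLA-DRA (0.7 to 13.6) did not. Of 5 enteroendocrine markers 1 passed, CHGB (23.4 to 131). Summed signal ran from 23868.9 to 36106.2 in control and from 22873 to 32646.9 in depleted arrays for the 14 epithelial markers. For 5 leukocyte markers it ran from 212.6 to 369.8 and from 280.7 to 447.7, for 6 fibroblast markers from 443 to 716.2 and from 366.9 to 639.7, and for 5 enteroendocrine markers from 59.6 to 161.8 and from 71.7 to 193.8. At 72 h alone the groups did not overlap for the leukocyte sum (212.6 to 253.4 in control, 294.5 to 378.3 in depleted) or for the enteroendocrine sum (99.1 to 111.5 and 113.2 to 138.7). LGALS4 also stands in the list of mucosal defence proteins used further on, and LYZ in that list and the leukocyte list. Whether any such other cells were present was not tested, nor was the part of these markers in the results.

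Trefoil peptides are small, cysteine-rich proteins that are secreted with mucins, bind within mucus and help an injured epithelium to close. TFF1 and TFF2 are best known from the stomach and TFF3 from intestinal goblet cells. REG4 is a secreted C-type lectin, AGR2 a protein disulfide isomerase of the endoplasmic reticulum that goblet cells need to fold mucins, and MUC13 a mucin anchored in the apical membrane. SLPI blocks neutrophil elastase and related proteases, SPINK1 is a trypsin inhibitor, SPINK4 is a goblet cell protein of the same Kazal family, and LCN2 binds bacterial iron carriers.

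In gene order the trefoil genes TFF3, TFF2 and TFF1 lie next to each other on chromosome 21, and AGR2 lies beside its relative AGR3 on chromosome 7. RefSeq promoter windows, from 250 bases before to 50 bases after the transcription start, were found for 6 of the 10 members. The windows of REG4 and MUC13 are shown because these genes differ in the direction and timing of their change. The REG4 window is at chr1:119811411-119811710 and the MUC13 window at chr3:124934702-124935001, both on the minus strand of GRCh38.p14, written 5′ to 3′. Capitals mark matches, on either strand, to 5 motifs. The TATA box was searched as TATAAA and the AP-1 motif as TGANTCA. The GATA factor motif was searched as AGATAA, that of FOXA as TGTTTAC and the GC box as GGGCGG.
REG4: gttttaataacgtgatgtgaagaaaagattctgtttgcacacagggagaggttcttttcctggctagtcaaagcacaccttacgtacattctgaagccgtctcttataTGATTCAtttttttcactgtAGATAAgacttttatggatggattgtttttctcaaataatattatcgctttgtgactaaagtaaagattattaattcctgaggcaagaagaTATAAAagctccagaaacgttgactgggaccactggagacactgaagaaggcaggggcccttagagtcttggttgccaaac
MUC13: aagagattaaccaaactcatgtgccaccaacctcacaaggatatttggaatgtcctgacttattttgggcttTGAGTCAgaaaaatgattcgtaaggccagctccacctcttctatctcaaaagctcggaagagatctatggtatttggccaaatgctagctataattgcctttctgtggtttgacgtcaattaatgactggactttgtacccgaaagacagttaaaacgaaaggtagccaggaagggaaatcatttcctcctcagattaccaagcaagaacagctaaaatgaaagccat

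The capitals in REG4 are an AP-1 match from base -142, a GATA match from -122 and a TATA box from -31, counted from the transcription start. MUC13 has a single match, to the AP-1 motif, from -178. The AP-1 motif TGANTCA, with N for any base, matches both strands at the same place, and no marked match overlaps another. Of 35114 promoter windows of the same length 7.71% held the AP-1 letters, 10.3% the GATA letters, 11.5% the TATA box, 3.42% the FOXA letters and 45% the GC box. Besides REG4 and MUC13, LCN2 held an AP-1 match, AGR2 a GATA match, SPINK4 a TATA box and a pair of GATA matches, and SPINK1 none of the 5 motifs. A match is a description of the letters and shows no binding.

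TFF1 and REG4 were lowest in depleted cells at 24 h and stood nearer to control cells at each later time. TFF1 had signals of 351.5, 517.2 and 316.7 in control cells at 24 h (sets 1 to 3) against 116.9, 136.6 and 170.5 in depleted cells. All depleted arrays lay below all controls, and the log2 difference was -1.37 (SE 0.24, n = 3 arrays a group), a fall of 2.58-fold after 16 was added to each signal. At 48 h TFF1 read 330.5, 406.6 and 373 in control and 226.2, 226.3 and 214.9 in depleted cells. These groups again did not overlap, with a log2 difference of -0.69 (SE 0.24) that did not pass the threshold, an adjusted p of 0.05. At 72 h the signals were 235.5, 353 and 231 in control and 215.4, 261.6 and 161.9 in depleted cells, which overlapped (log2 -0.33, SE 0.24). From 24 to 72 h TFF1 moved by -0.50 (SE 0.24) in control cells, downward in every set. In depleted cells it moved by 0.53 (SE 0.24), upward in 2 of 3 sets, and neither change was called in either fit. The depleted mean was 7.90 at 48 h and 7.82 at 72 h. In a bulk sample, fewer cells that make a transcript and less of it in each cell cannot be told apart.

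REG4 was read by 3 probe sets. The brightest gave 707.7, 481.8 and 568 in control cells at 24 h and 226.8, 139.6 and 196.9 in depleted cells. Every depleted array was below every control, a log2 difference of -1.57 (SE 0.29), or 2.97-fold. At 48 h it read 656.2, 406.4 and 654.4 against 501.6, 249.6 and 439.6, with overlap between the groups (log2 -0.53, SE 0.29). By 72 h the control arrays held 296.3, 240.6 and 281.1 and the depleted arrays 394.6, 222.3 and 330, so that 2 of 3 sets had more REG4 signal in depleted cells (log2 0.17, SE 0.29). The control level itself was lower at 72 h than at 24 h by -1.05 (SE 0.29), and the depleted level higher by 0.69 (SE 0.29), both log2 differences that passed only with the set of arrays as a block.

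**Figure D1:**
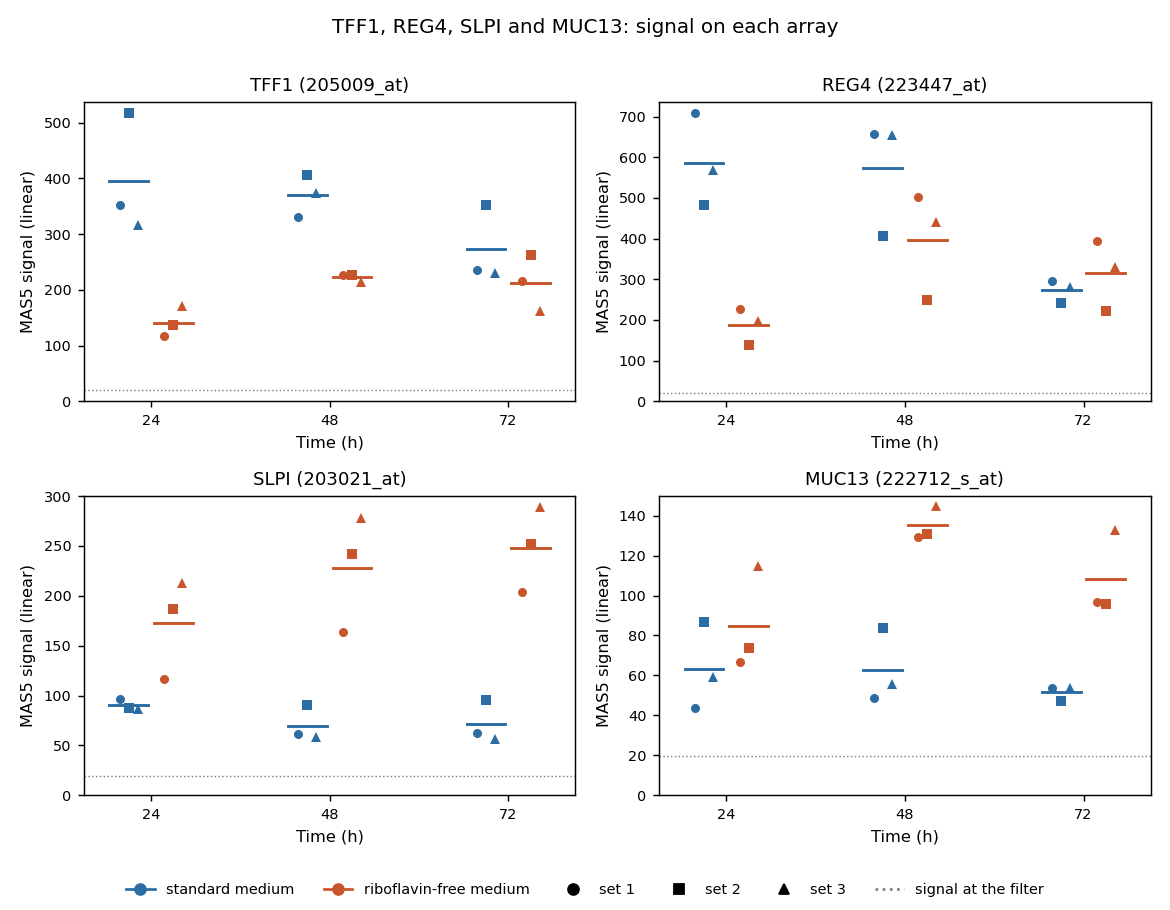
MAS5 signal (linear axis from 0) against time in hours for TFF1, REG4, SLPI and MUC13, 1 point an array, shaped by set, with bars at the group means and a dotted line at the signal of the filter (19.6). TFF1 and REG4 are far apart between media at 24 h and near each other at 72 h, while SLPI and MUC13 are higher in riboflavin-free medium at 48 and 72 h.

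A second REG4 probe set moved much like the first, with 652.2, 331.8 and 488.4 in control and 230.7, 102.2 and 170.3 in depleted cells at 24 h. Its log2 difference of -1.48 (SE 0.41) passed only with the block. At 72 h it was at -0.02 (SE 0.41), where the brightest was at 0.17. The third, with signals of 2.8 to 60.2 over all arrays, was at -0.44 (SE 0.33) at 24 h and at 0.57 (SE 0.33) at 72 h. At 48 h it was at 0.38 (SE 0.33), above 0 in 3 of 3 sets, where the brightest was at -0.53. The third probe set passed at no time in either fit. It therefore differed from the brightest probe set in the sign of the averaged effect (0.17, SE 0.19, against -0.64, SE 0.17). Which transcripts the 3 probe sets read was not examined.

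**Figure D2:**
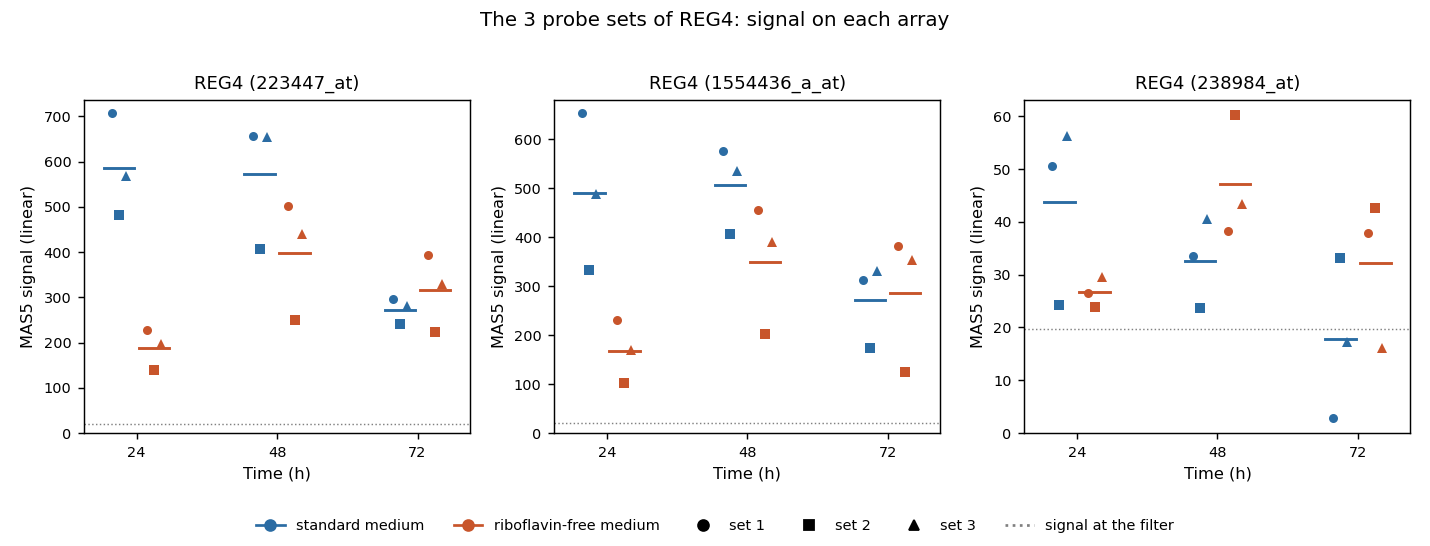
MAS5 signal (linear axis from 0) of the 3 REG4 probe sets against time in hours, 1 point an array, shaped by set, with bars at group means and a dotted line at the signal of the filter. The panels on the left and in the middle share their pattern, and the panel on the right lies between 2.8 and 60.2, close to the filter.

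Over all 12 member probe sets that passed the filter, limma called 2 lower and 0 higher at 24 h, those of TFF1 and the brightest of REG4, where 0.0403% of 27307 probe sets were called lower. Since the members were chosen on these signals, nothing is read from that gap. With the set of arrays as replicate block 3 were lower, from the same genes, against 0.813% of all probe sets. The median log2 difference was -0.28 over the 12 and 0.00 over all probe sets. At an unadjusted p under 0.05, 3 were lower and 1 higher, the last being SLPI. The share of all probe sets at that unadjusted p was not counted. The TFF1 call at 24 h was lost without control replicate 1 (log2 -1.43), control replicate 2 (-1.17), depleted replicate 1 (-1.25) or depleted replicate 2 (-1.35) of that time. In the blocked fit it was lost without set 1 (log2 -1.32), set 2 (-1.15) or set 3 (-1.64). For REG4 the call was lost without any of the 6 arrays of 24 h (log2 -1.71 to -1.39) or without control or depleted replicate 3 of 72 h (-1.57 in both), and in the blocked fit without set 1 (-1.57) or set 3 (-1.63).

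SLPI was higher in depleted cells at every time, and its control levels overlapped between times. It read 96.2, 87.8 and 86.1 in control against 117, 187.1 and 213.3 in depleted cells at 24 h, where the groups did not overlap (log2 0.79, SE 0.26, not called in either fit). At 48 h the values were 61, 90.3 and 58 against 164.2, 242.3 and 277.8. That was a log2 difference of 1.50 (SE 0.26), or 2.83-fold, again with no overlap. At 72 h SLPI stood at 62.2, 95.7 and 56.4 in control and at 203.7, 252.3 and 288.8 in depleted cells (log2 1.61, SE 0.26, 3.05-fold). Set 1 had the smallest SLPI signal of the depleted arrays at each time.

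MUC13 was read by 2 probe sets that gave like differences. The brighter one held 43.9, 86.9 and 59 in control and 66.8, 73.5 and 114.6 in depleted cells at 24 h, with overlap (log2 0.36, SE 0.24). At 48 h it held 48.6, 83.8 and 55.7 against 129.4, 131 and 144.9, with no overlap (0.97, SE 0.24, not called in either fit). At 72 h the signals were 53.5, 47.4 and 53.8 against 96.5, 95.6 and 132.7, also apart (0.87, SE 0.24). On all arrays this was called only with the block, and with a set left out only without set 2 (0.89). Without block it was called after quantile normalization (0.86). It was also called without control replicate 2 of 24 h, control replicate 2 of 48 h or depleted replicate 3 of 24 h (0.87 in each). The other probe set read 44.1, 29.7 and 26.4 in control and 99.2, 72.1 and 81.5 in depleted cells at 72 h, a rise of 1.03 (SE 0.22), or 2.04-fold. It was at 0.79 (SE 0.22) at 48 h, called only with the block.

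Counted over the 12 probe sets, 1 (SLPI) was higher at 48 h, beside 0.0696% of all probe sets, and 2 (SLPI and MUC13) with the block, beside 0.527%. The SLPI call at 48 h was weak against the loss of an array: it was kept only without depleted replicate 1 or 3 of 24 h or control replicate 2 of 72 h, and was lost without each of the other 15 arrays (log2 1.35 to 1.70). It was also lost in the blocked fit without set 1 (1.64), set 2 (1.61) or set 3 (1.25). At 72 h SLPI and 1 probe set of MUC13 were higher, beside 2.23% of all, and both MUC13 probe sets and SLPI with the block, beside 6.4%. The count of 2 at 72 h became 1 without depleted replicate 1, control replicate 2 or control replicate 3 of that time. Leaving out any single array did not end the SLPI call at 72 h (log2 1.49 to 1.80). At 72 h the summed leukocyte and enteroendocrine markers were also higher in depleted cells with no overlap, as given above, and their part in the SLPI, MUC13 and TFF3 differences was not tested.

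**Figure D3:**
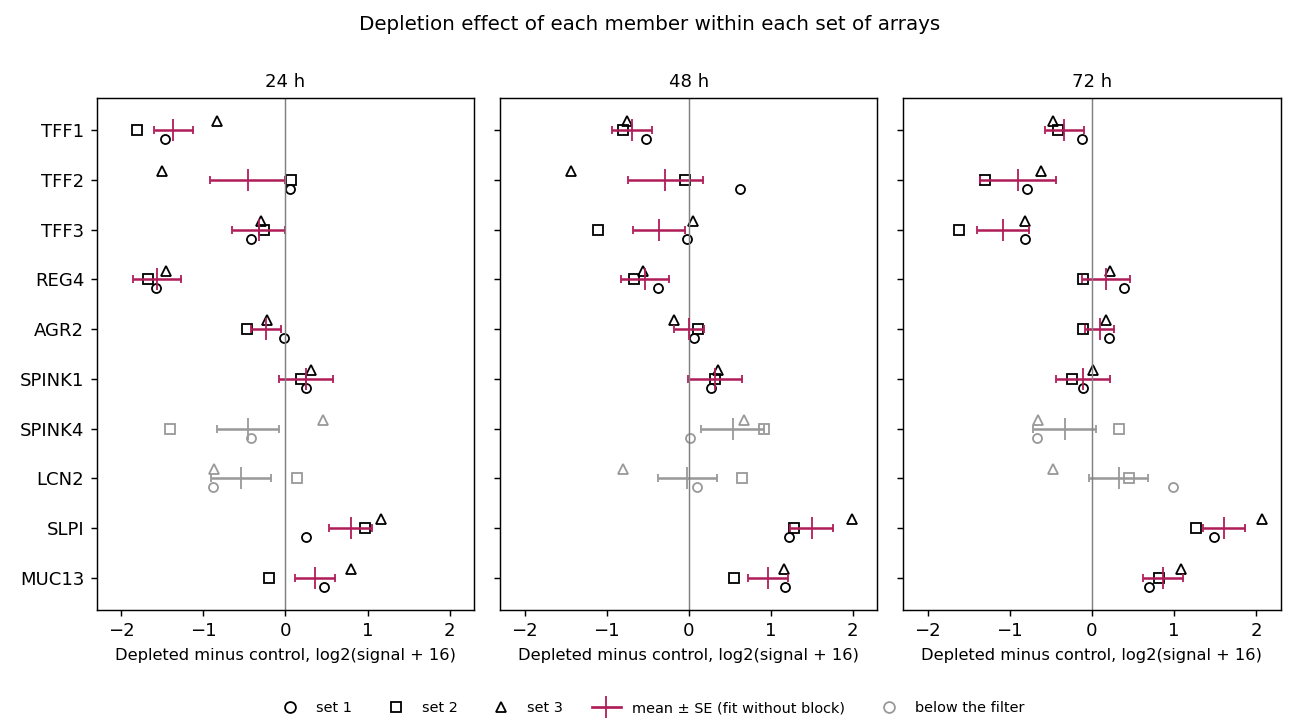
Log2 difference between depleted and control arrays, log2(signal + 16), for the 10 members at 24, 48 and 72 h, with 1 open symbol for each set of arrays and a tick with a bar for the mean ± SE of the fit without block. All 3 sets of TFF1 lie below 0 at each time and all 3 of SLPI above 0, REG4 moves from -1.57 at 24 h to 0.17 at 72 h, and the genes below the filter (grey) have sets on both sides of 0 in most panels.

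TFF3, the trefoil peptide of the intestine, parted late. At 24 h it read 96.7, 93.5 and 124.8 in control and 68.5, 75 and 98.1 in depleted cells, which overlapped (log2 -0.33, SE 0.32). The values of 48 h, 71.5, 115.1 and 117.5 against 70, 45.1 and 122.8, overlapped fully (-0.36, SE 0.32). At 72 h the control arrays held 104.1, 205.9 and 189.4 and the depleted arrays 52.3, 56.5 and 100.9, with no overlap (-1.08, SE 0.32, 2.11-fold). The fit without block did not call this difference and the blocked fit did, as the 1 member lower at 72 h, where 6.9% of all probe sets were called lower. Without block it was called with a pseudocount of 64 (-0.77), without control replicate 1 of 72 h (-1.36) and without depleted replicate 2 of 48 h (-1.08). In the blocked fit the call was lost without set 1 (-1.21) or set 3 (-1.21) and kept without set 2 (-0.81).

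TFF2 lay near the filter, with signals from 4.9 to 62.2 over the 18 arrays. At 72 h it read 62.2, 37.7 and 25.1 in control and 29.3, 5.8 and 10.8 in depleted cells (log2 -0.90, SE 0.46), with overlap, and it passed at no time in either fit. Its sets differed in sign at 24 and 48 h. TFF1, TFF2 and TFF3 were thus below 0 in the mean at each time, with TFF1 farthest from control at 24 h and TFF3 at 72 h. The difference in timing between TFF1 and TFF3 was not tested.

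AGR2 gave 3478.7, 3491.1 and 4081 in control and 3431.6, 2509.5 and 3488.2 in depleted cells at 24 h, with overlap. Its log2 differences were -0.24, 0.00 and 0.10 at 24, 48 and 72 h (SE 0.18 each), and none passed in either fit. A second AGR2 probe set was at -0.19, 0.23 and -0.15 (SE 0.27 each). SPINK1 read 3675.9, 5540.9 and 2585 in control and 4364.5, 6313.2 and 3197.1 in depleted cells at 24 h, so that the sets differed more than the media. Within each set depleted cells had 0.19 to 0.30 more SPINK1 (log2) at 24 h and 0.27 to 0.36 more at 48 h, and neither was called, with or without the block. At 72 h the sets were at -0.10, -0.24 and 0.02 (mean -0.11, SE 0.33), also called in neither fit. SPINK4, with signals from 2.1 to 44.4, and LCN2, with 2.2 to 29.9, were below the filter, so no test was made on them. Their groups overlapped at every time.

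**Figure D4:**
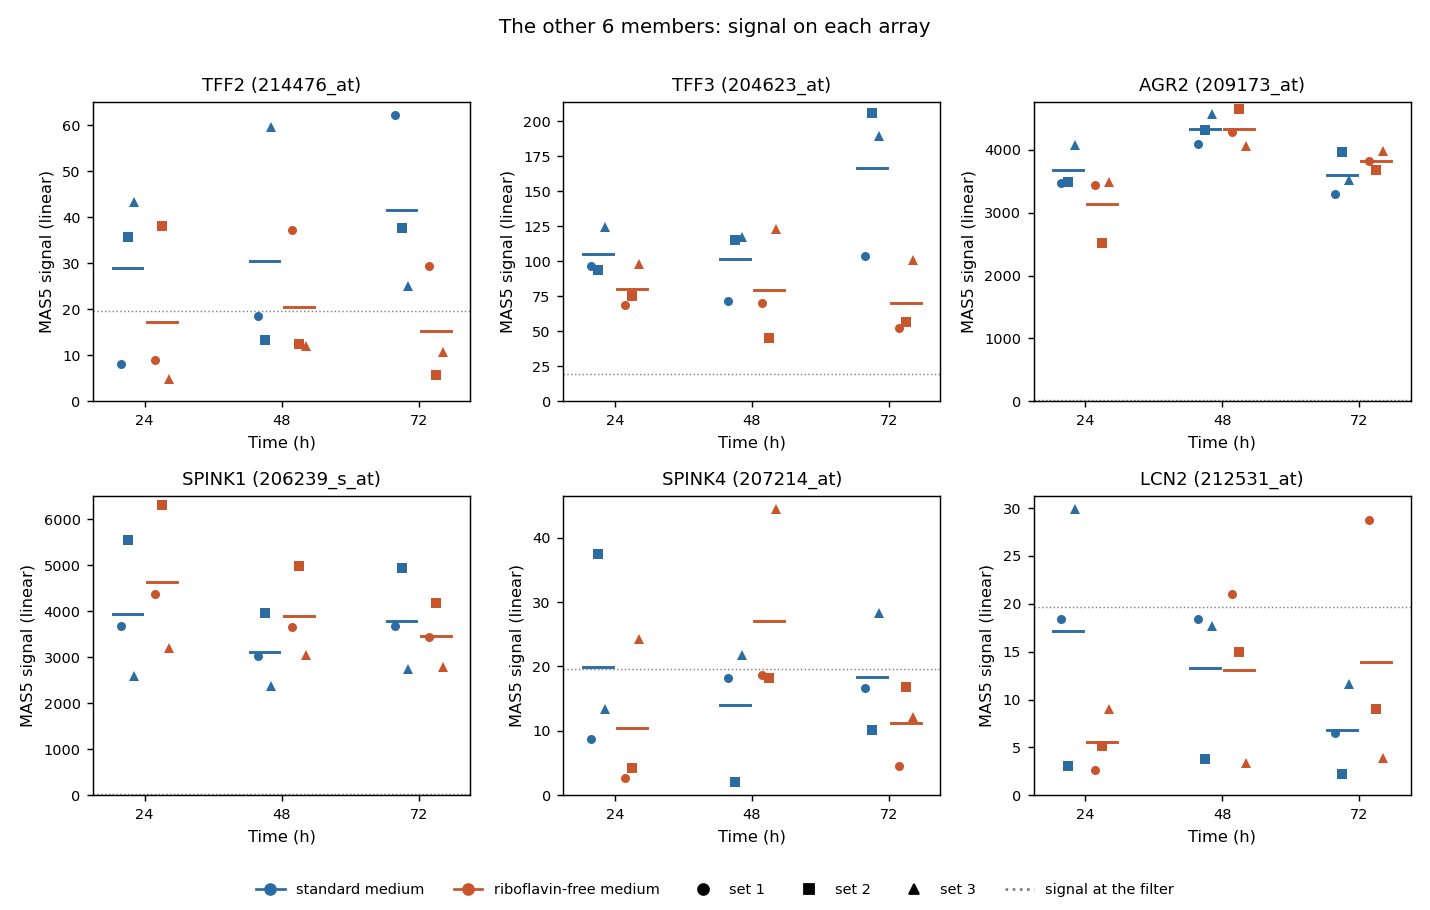
MAS5 signal (linear axis from 0) against time in hours for TFF2, TFF3, AGR2, SPINK1, SPINK4 and LCN2, 1 point an array, shaped by set, with bars at group means and a dotted line at the signal of the filter. TFF3 separates at 72 h, SPINK1 differs by set more than by medium, and TFF2, SPINK4 and LCN2 scatter about the filter.

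Averaged over the times, SLPI (log2 1.30, SE 0.15) and both probe sets of MUC13 (0.73, SE 0.14, and 0.74, SE 0.13) were higher, and TFF1 (-0.80, SE 0.14) and the brightest probe set of REG4 (-0.64, SE 0.17) were lower. These 3 of 12 higher stand beside 2.73% of all probe sets and the 2 lower beside 1.53%. With the block the 3 higher were unchanged in number, beside 8.55%, and 4 were lower, adding TFF3 and the second REG4 probe set, beside 6.46%. The 12 had a median of -0.04, and all probe sets one of 0.02. Leaving out single arrays ended the averaged REG4 call 12 times of 18 (log2 -0.72 to -0.55 over all 18), namely without each set 3 array, each control array of set 1 and each depleted array of set 2. It was also lost for the mean of the 3 REG4 probe sets (-0.39), with a pseudocount of 1 (-0.67), without the filter (-0.64) and with 75th percentile centring (-0.69). The averaged call of the brighter MUC13 probe set was lost in the blocked fit without set 1 (0.71) or set 3 (0.58).

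Time in culture moved few members past the threshold. Limma without block called 0 of the 12 in control cells between 24 and 72 h, where 0.0659% of all probe sets were called lower. At an unadjusted p under 0.05, 3 were lower and 0 higher. The block called 3 lower, 2 of REG4 and the dimmer 1 of MUC13 (-0.64, SE 0.22), beside 0.487%. The brighter MUC13 probe set was at -0.20 (SE 0.24) and was called in neither fit. In depleted cells 0 were called, beside 0.941% of all called higher, and the block called 2 higher, both of REG4, beside 4.37%. At an unadjusted p under 0.05, without block, 2 were higher. The depletion effect at 72 h minus that at 24 h was called for 0 of the 12 without block, beside 0.352% of all called higher. With the block it was called for TFF1 (1.03) and for 2 probe sets of REG4 (1.74 and 1.45), beside 1.87%. At an unadjusted p under 0.05, without block, 5 were higher and 0 lower. The share of all probe sets at that unadjusted p was not counted, here or for the changes with time. For TFF1 and REG4 the positive value means that the deficit at 24 h had shrunk by 72 h, and for SLPI (0.82, SE 0.37, called in neither fit) that its excess was larger. Without set 1 or without set 3 the blocked fit called 0 member probe sets in each of these 3 comparisons.

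The order of the 6 group means put the 3 control groups above the 3 depleted groups for TFF1 and TFF3, and the reverse for SLPI and MUC13. How many of all probe sets have such an order was not counted. TFF2 had the order of TFF1 and TFF3, but it passed the filter only through its control groups and was called in neither fit. For TFF1 the step between control cells at 72 h and depleted cells at 48 h was the only neighbouring pair whose arrays did not overlap. For SLPI it was the step between depleted and control cells at 24 h. The REG4 order ran control 24 h, control 48 h, depleted 48 h, depleted 72 h, control 72 h and depleted 24 h, and only the last pair did not overlap. No neighbouring groups of TFF2, TFF3 or MUC13 were apart.

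Likeness between genes was taken as Pearson's r over the 18 arrays after the mean of each set was taken away, among 12319 genes with 1 probe set each. The arrays share the 6 groups, so r mostly describes likeness across groups and carries no test. TFF1 and REG4 correlated at 0.88 and SLPI and MUC13 at 0.84, while TFF3 was at -0.65 with both SLPI and MUC13. The genes most like TFF1 were TSPAN4 (0.89), COXFA4 (0.89) and REG4. Those most like REG4 were MMP1 (0.94), NDUFAF4 (0.91) and WDR77 (0.90), and those most like SLPI were GCNT3 (0.95), CD24 (0.92) and AKR1C1 (0.92). For MUC13 they were PMAIP1 (0.91), MACIR (0.90) and DLGAP1-AS2 (0.89), and for TFF3 GIPC2 (0.88), SSBP2 (0.86) and CHD1L (0.86). AGR2 was most like SLC36A4 (0.94), POLR1A (0.87) and HES4 (0.85), SPINK1 most like SUMF1 (0.91), SPAG16 (0.90) and KMT2A (0.89), and TFF2 most like GPATCH11 (0.74), MACROD2 (0.70) and TBC1D8B (0.69).

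Other genes of mucus and goblet cells were taken from lists drawn up by function. Of 14 other mucins 13 were on the array and 5 passed the filter, MUC1, MUC3A, MUC4, MUC5AC and MUC17, with log2 differences averaged over the times of -0.23 to 0.15. Limma called 0 of these 5 in the averaged effect, with 0 at an unadjusted p under 0.05 and 0 with the block (median -0.11, and 0.02 over all probe sets). MUC2, the gel-forming mucin of the colon, did not pass the filter. Of 25 goblet cell products and secretory regulators 18 passed, and 3 rose and 0 fell (median 0.15, and 4 rose and 1 fell with the block). Over all probe sets 2.73% were called higher and 1.53% lower, and 8.55% and 6.46% with the block. The risers were AGR3, the close relative of AGR2 (1.09, SE 0.13, adjusted p = 0.000149), KLF4, a transcription factor of goblet cell maturation (0.88, SE 0.12, adjusted p = 0.000738), and GCNT3, which branches mucin-type sugar chains (0.93, SE 0.14, adjusted p = 0.00113). XBP1, a factor of secretory capacity, was at -0.32 (SE 0.13, adjusted p = 0.196, and 0.0304 with the block). ST6GALNAC1, a sialyltransferase of mucins, was at 0.52 (SE 0.21, adjusted p = 0.194, and 0.0485 with the block).

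AGR3 had 411, 332.6 and 280.1 in control and 806.4, 1034.3 and 797.7 in depleted cells at 24 h. Its log2 differences were 1.33, 1.18 and 0.75 (SE 0.22 each) at 24, 48 and 72 h, beside the AGR2 values of -0.24, 0.00 and 0.10. The difference between these neighbouring genes was not tested.

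**Figure D5:**
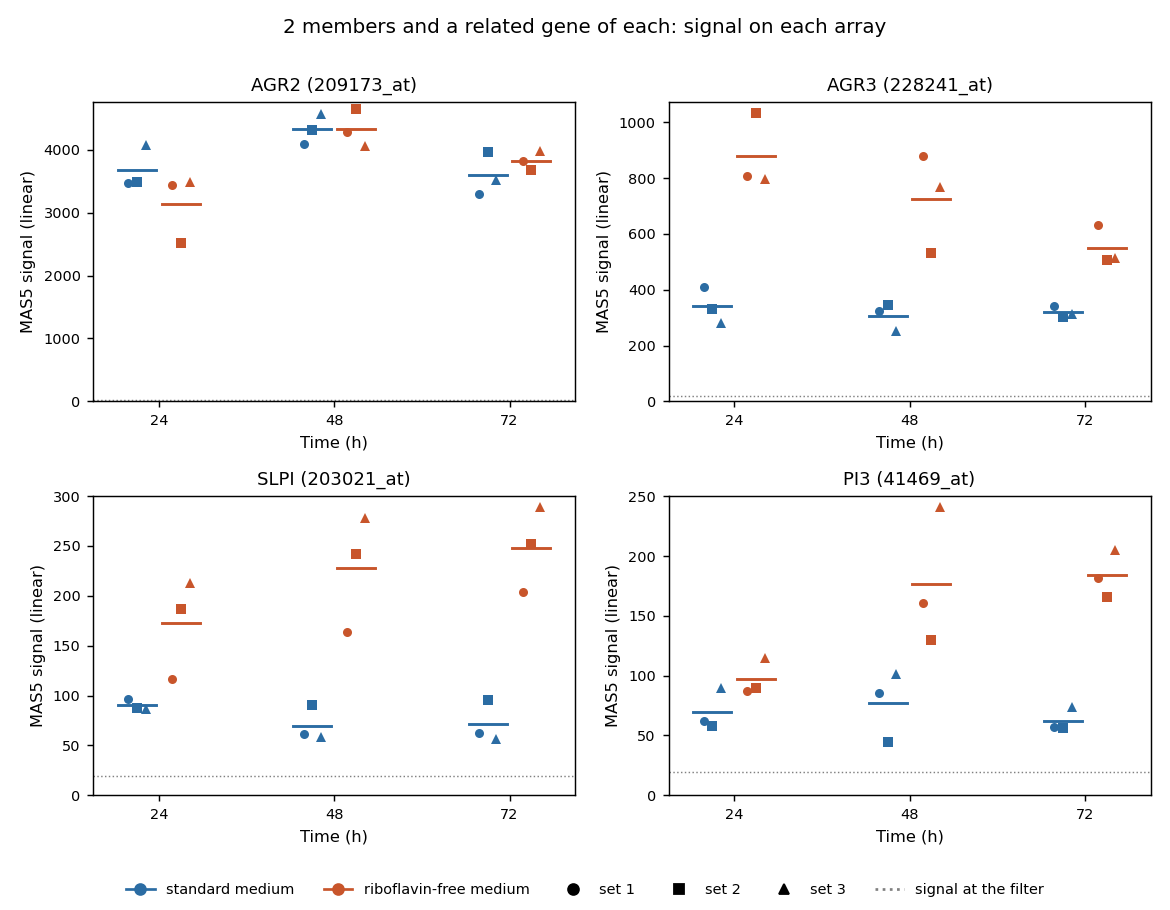
MAS5 signal (linear axis from 0) against time in hours for AGR2 beside its relative AGR3 and for SLPI beside PI3, 1 point an array, shaped by set, with bars at group means and a dotted line at the signal of the filter. AGR3 is higher in riboflavin-free medium at each time while the AGR2 groups overlap, and SLPI and PI3 are both higher at 72 h.

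Of 25 other secreted proteins of mucosal defence 15 passed the filter, and 2 rose and 3 fell in the averaged effect (median 0.11, and 5 rose and 4 fell with the block), beside the same shares over all probe sets, 2.73% higher and 1.53% lower, and 8.55% and 6.46% with the block. PI3 (elafin), which like SLPI is an elastase inhibitor with a whey acidic protein domain and lies beside it on chromosome 20 with only SEMG1 and SEMG2 between, rose by 0.94 (SE 0.15, adjusted p = 0.00199). It read 57.1, 56.1 and 74 in control and 181.6, 166.1 and 205.2 in depleted cells at 72 h. PLA2G2A, a secreted antibacterial phospholipase, rose by 1.16 (SE 0.22, adjusted p = 0.00662). DEFB1, a constitutive defensin, was at -0.69 (SE 0.13, adjusted p = 0.00728), SERPINA1, the alpha-1 antitrypsin, at -0.75 (SE 0.12, adjusted p = 0.00169) and LGALS2, a galectin, at -1.11 (SE 0.22, adjusted p = 0.00838). Of the 13 epithelial markers 0 rose and 2 fell, FABP1, a fatty acid binding protein of enterocytes (-1.36, SE 0.34, adjusted p = 0.0293), and the brush border enzyme SI (-0.92, SE 0.14, adjusted p = 0.00165). At 72 h SI stood at 317.9, 223.6 and 239.3 in control and at 81.8, 63.3 and 35.6 in depleted cells, the time at which TFF3 was also farthest from control. The part of this change in the results on the members was not tested.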

How the data were processed

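Per the labels, antisense RNA from total RNA was labelled with biotin by the Affymetrix protocol. The deposited values are MAS5 signal intensities, with MAS5 named in the submitters' processing notes and its version not given in the sources used here. The 2 percent trimmed mean of each array lay between 100.011 and 100.014, so each array had been scaled to a common level. From these values log2(signal + 16) was computed, 62 control probe sets were dropped, and the 27307 probe sets with a mean at or above the median over all (5.15, a signal of 19.6) were kept. All 18 arrays were fitted in limma 3.58.1 (R 4.3.3) with 1 mean a group, and p-values were adjusted by Benjamini-Hochberg over all probe sets at 0.05. The fit was tested on simulated data. Figures used Python 3.11.15 and matplotlib 3.10.9.

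Array numbers pair the groups by set: after group means were removed, arrays correlated at 0.30 to 0.60 within sets (45 pairs) and at -0.75 to 0.16 between sets (108 pairs), and each of the 18 was most like an array of its own set. Arrays of the same group lie in different sets, and removing their mean pushes them towards negative correlation. The low end of the range between sets is thus partly built in. A fit with the set as replicate block was therefore added. SEs are those of the fit without block, also where only the blocked fit made a call. The flagged results instead give SEs of the blocked fit. Symbols came from the platform annotation and matched current ones for all 10 members. Every member was named through its brightest probe set, and through others where they disagreed in sign or call. From each other list up to 5 genes with the lowest p for the averaged effect were eligible, and the 3 genes most like each tested member were named. The members and lists were chosen with earlier results of these data known. EPCAM, CDH17, LGALS4, PTPRC, HLA-DRA, COL1A2, POSTN and MUC2 were named after their values were seen. Alternatives were the pseudocounts 1 and 64, no filter, other scalings, the block, and leaving out arrays or sets.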

Additional observations from a re-analysis of the deposited data

Results flagged for a closer look

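The depletion effect of 2 members differed between 72 h and 24 h in the blocked fit, which tests that difference directly. On the log2 scale the effect went from -1.37 at 24 h to -0.33 at 72 h for TFF1. For the brightest REG4 probe set it went from -1.57 to 0.17. The difference, 72 h minus 24 h, was 1.03 for TFF1 (SE 0.26, adjusted p = 0.0403 by limma with the block, and 0.218 without it), positive in 3 of 3 sets. For REG4 the brightest probe set gave 1.74 (SE 0.20, adjusted p = 0.000806, and 0.0673 without the block) and the next one 1.45 (SE 0.26, adjusted p = 0.00791, and 0.37 without the block), each positive in 3 of 3 sets. Without set 1 or without set 3 the blocked fit called 0 member probe sets for this difference, and 2 without set 2. Both genes belong to a list chosen with these signals known, so the tests are no independent support. Groups of 3 arrays were not examined for outlying arrays.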

How the results depend on the processing

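Without a block, limma called 2 member probe sets at 24 h, 1 at 48 h, 2 at 72 h, 5 in the averaged effect, and 0 in either change with time and in the change of the effect. With the replicate block these were 3, 2, 4, 7, 3, 2 and 3. At 24 h the count was 1 with a pseudocount of 1, without the filter and with 75th percentile centring, and 0 without set 1 or without set 3 (each with the block on the other sets). At 48 h it was 0 in those 3 settings and without set 1, 2 or 3. At 72 h it was 4 without set 2 and 1 without set 3. Without set 2 the block called 1 in control cells over time, 2 in depleted cells over time and 2 in the change of the effect, and without set 1 or set 3 it called 0 in each of these. That last count was 1 with a pseudocount of 64 and after quantile normalization. Leaving out 1 array at a time gave 0 to 2 at 24 h, 0 to 1 at 48 h, 1 to 3 at 72 h, 4 to 5 averaged, 0 and 0 over time, and 0 to 1 for the change of the effect, where the 1 came without depleted 48 h replicate 2.

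For the single genes, no called difference changed sign under any alternative. TFF2 at 48 h, never called, was at 0.29 without set 3 and at 0.13 without control 48 h replicate 3, against -0.28 on all arrays. At 24 h TFF2 was at 0.06 without set 3, against -0.46. TFF3 at 48 h, also never called, was at 0.02 without set 2, against -0.36. The mean of the 3 REG4 probe sets was at -1.16 at 24 h and -0.39 averaged over times, and neither was called. Leaving out a set leaves 2 arrays a group. The causes of these changes were not tested. A pseudocount of 16 understates differences of dim genes such as TFF2, SPINK4 and LCN2, whose signals lie near background.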
